A study of Mus musculus with 12 samples.

Results

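The 10 ADAMTS protease genes described here (Adamts1, Adamts2, Adamts4, Adamts5, Adamts6, Adamts7, Adamts9, Adamts10, Adamts12 and Adamts15) were taken by name from a count matrix of 48709 genes, which holds 19 genes named Adamts with a number. Exon reads were counted in 12 RNA-seq libraries of wild type C57BL/6 mouse embryonic fibroblasts, cells cultured from E12.5 to E13.5 embryos. The 4 groups of 3 libraries were siIMP2 + IL-17, siControl + IL-17, siIMP2 and siControl. All cells were transfected with an siRNA, either against IMP2 (gene Igf2bp2, an RNA-binding protein that recognises N6-methyladenosine) or a control, and 24 hours later received interleukin-17 (IL-17) at 200 ng/mL for 8 hours or no stimulus, so no group was free of transfection. The series' question was how loss of IMP2 changes gene expression and the IL-17 response. The labels do not say whether the 3 libraries of a group are separate cultures or embryos. The p-values therefore speak of the spread among the libraries at hand, and that spread may be technical.

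ADAMTS proteins are secreted zinc metalloproteinases with thrombospondin type 1 repeats, which act on the extracellular matrix after a proprotein convertase such as furin removes their propeptide. ADAMTS1, ADAMTS4, ADAMTS5, ADAMTS9 and ADAMTS15 cleave hyalectans, the hyaluronan-binding proteoglycans versican and aggrecan among them, and ADAMTS4 and ADAMTS5 are known as the aggrecanases of cartilage. ADAMTS2 removes the amino propeptide of fibrillar procollagens, ADAMTS7 and ADAMTS12 cleave cartilage oligomeric matrix protein (COMP), and ADAMTS6 and ADAMTS10 are linked to fibrillin microfibrils.

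Levels were first compared per length, as the length-scaled values (TPM) that the authors deposited. Adamts2 was the most abundant of the genes, with a median of 32.6 TPM over the 12 libraries and a range of 23.6 to 62.6 TPM. Adamts1 followed with a median of 19.1 TPM, Adamts12 with 15.5, Adamts10 with 14.9, Adamts6 with 11.2, Adamts5 with 8.34, Adamts4 with 5.70 and Adamts7 with 4.08 TPM. The levels of Adamts2, Adamts4 and Adamts7 lay above the next gene in this order in 12 of 12 libraries. From Adamts1 to Adamts5 the order was not the same in all 12 libraries. Adamts1 lay above Adamts12 in 7 libraries, Adamts12 above Adamts10 in 6, Adamts10 above Adamts6 in 9, Adamts6 above Adamts5 in 7 and Adamts5 above Adamts4 in 8. Part of this followed the siRNA. Adamts12 lay above Adamts10 in every library with the IMP2 siRNA and below Adamts10 and Adamts1 in every library with the control siRNA. Mean TPM in siIMP2 was 27.8 for Adamts12, 16.5 for Adamts10 and 15.3 for Adamts1. In siControl these means were 9.06, 19.6 and 26.3 TPM. Adamts9 stood at a median of 0.205 TPM, on 14 to 102 reads per library, above Adamts15 in 12 of 12 libraries. Adamts15 (ENSMUSG00000033453, mm10 chromosome 9, 30899155 to 30922452, minus strand), a versican-cleaving member that neighbours Adamts8 at a distance of 20.1 kb, had 5 reads in all. These were 2 reads in siIMP2 + IL-17, 2 in siControl + IL-17, 0 in siIMP2 and 1 in siControl. For siIMP2 the count of 0 allows up to 0.0262 CPM (counts scaled to library size) over the 3 libraries, for counting error only. Adamts15 was too low for any test, and the other 9 members passed the low-count filter.

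Total exon counts ran from 33841054 to 44433699 per library. The library titles begin with RB160 (1 library of every group, named replicate 3 here) or NA (2 libraries of every group, replicates 1 and 2), and what the prefixes stand for is not given. This title set was a term in every model except the alternatives that left it out or used the NA libraries alone. Values within the sets are given as RB160 and NA values. No pair of libraries in a group matched within sampling noise. The siRNA target Igf2bp2 had 22.3, 18.6 and 24.6 CPM in siIMP2, against 167, 146 and 134 CPM in siControl. With IL-17 it had 24.3, 18.4 and 28.2 CPM in siIMP2 + IL-17, against 166, 156 and 139 CPM in siControl + IL-17. The siRNA left 14.7% of the siControl level without IL-17 and 15.4% with it. Of the other IMP genes, Igf2bp3 stood at 76.1% without IL-17 (edgeR adjusted p = 0.00200) and 75.6% with it (0.00166). Igf2bp1 stood at 105% (edgeR adjusted p = 0.332) and 103% (0.628). The part of Igf2bp3 in the ADAMTS differences was not tested. Of the 8 fibroblast markers, Col1a1, Col1a2, Prrx1 and Pdgfrb had means of 9410, 5250, 307 and 153 CPM over all libraries, Pdgfra and Dcn had 33.8 and 11.8 CPM, and Thy1 and Lum had 2.77 and 1.08 CPM. Of the macrophage markers, Adgre1 and Tyrobp had 0 reads, and Ptprc, Csf1r and Cd68 had means of 0.0352, 1.35 and 3.19 CPM.

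CPM values below are of exon reads unless stated, scaled by TMM (a correction for library composition), and in each list of 3 values the first 2 are NA libraries and the third is the RB160 library. A gene rose or fell when edgeR's quasi-likelihood test gave a Benjamini-Hochberg adjusted p below 0.05 over all 13702 genes tested. Fold changes are log2 values from the model of all 12 libraries, n = 3 per group, given with a standard error (SE). The SE was worked back from the test, as the size of the fold change divided by the square root of the quasi-likelihood F statistic. The 95% intervals of fold changes use this SE with a normal multiplier. They are therefore narrower than intervals from the quasi-likelihood test would be.

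**Figure D1:**
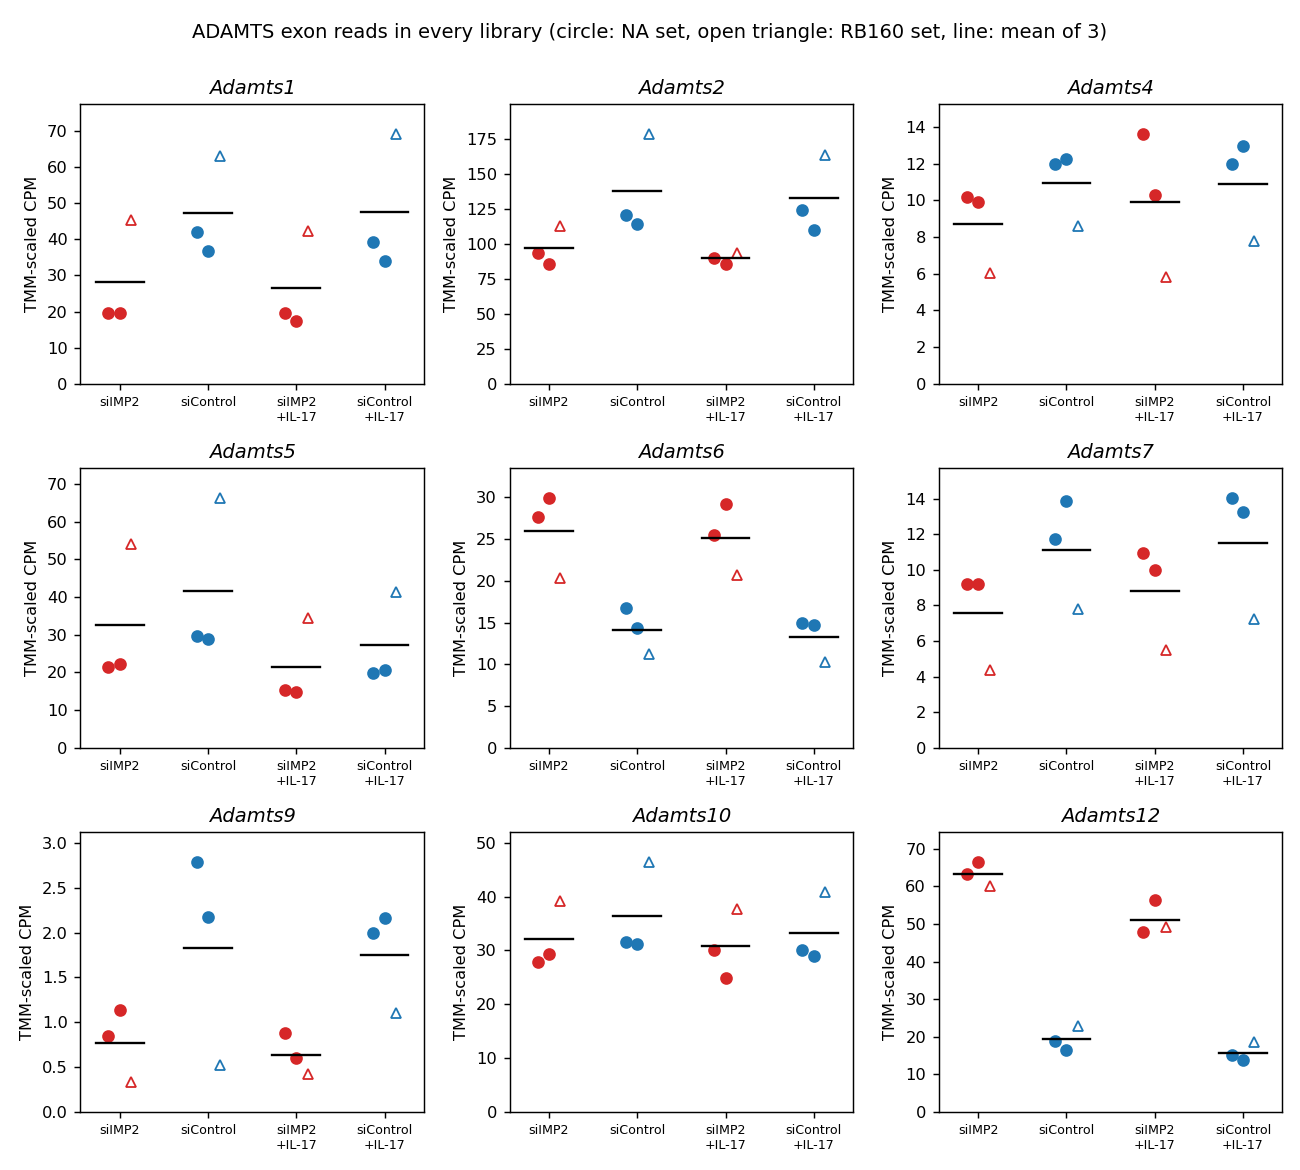
TMM-scaled CPM of the 9 tested ADAMTS genes in every library, by group, with NA libraries as filled circles, RB160 libraries as open triangles and the mean of 3 libraries as a line. Adamts12 lies between 48.0 and 66.4 CPM in the libraries with the IMP2 siRNA and between 13.7 and 22.7 CPM in those with the control siRNA, and the RB160 libraries of Adamts1 and Adamts5 stand above the NA libraries of their group.

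The first comparison was the IMP2 siRNA against the control siRNA. Adamts12 rose by 3.27-fold and Adamts6 by 1.83-fold in unstimulated cells, while Adamts1, Adamts2, Adamts4, Adamts5, Adamts7 and Adamts9 fell, to between 44.2% and 78.4% of the siControl level. Adamts10 did not pass. Of the 9 tested members, 2 rose and 6 fell in unstimulated cells, beside 16.1% of all genes that rose and 16.7% that fell. The median change was -0.37 over the members and -0.00036 over all genes tested. With IL-17 present 2 rose and 5 fell, where 16.7% of all genes rose and 16.7% fell. In these bulk libraries, fewer cells of a type and less RNA per cell cannot be told apart.

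Of the pair of COMP-cleaving proteases, Adamts12 (ENSMUSG00000047497, chromosome 15, 11064790 to 11346867, plus strand) had 63.4, 66.4 and 60.1 CPM in siIMP2, against 18.9, 16.5 and 22.7 CPM in siControl. With IL-17 it had 48.0, 56.4 and 49.2 CPM in siIMP2 + IL-17, against 15, 13.7 and 18.5 CPM in siControl + IL-17. Every library with the IMP2 siRNA was above every library with the control siRNA, with no overlap. Adamts12 rose by 1.71 ± 0.11 without IL-17 (edgeR adjusted p = 5.55e-07, RB160 1.40, NA 1.87), a 3.27-fold difference, and by 1.70 ± 0.12 with IL-17 (edgeR adjusted p = 6.85e-07, RB160 1.41, NA 1.85). Adamts7 (ENSMUSG00000032363, chromosome 9, 90163069 to 90208071, plus strand) went the other way. It had 9.18, 9.21 and 4.37 CPM in siIMP2, against 11.7, 13.9 and 7.83 CPM in siControl. Within each title set the siIMP2 libraries were lower, and across the sets the groups overlapped. Adamts7 fell by 0.59 ± 0.10 without IL-17 (edgeR adjusted p = 6.54e-04, RB160 -0.83, NA -0.47) and by 0.39 ± 0.10 with it (edgeR adjusted p = 0.00875, RB160 -0.39, NA -0.38). Tbc1d2b overlaps Adamts7 on the opposite strand, with 20252 reads over all libraries against 4314 exon reads of Adamts7. Since use of strand in the counting is not stated, the reads of both genes may be mixed.

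Of the microfibril-linked pair, Adamts6 rose and Adamts10 did not pass. Adamts6 (ENSMUSG00000046169, chromosome 13, 104287873 to 104494763, plus strand) had 27.6, 29.9 and 20.3 CPM in siIMP2, against 16.7, 14.4 and 11.3 CPM in siControl. With IL-17 it had 25.5, 29.2 and 20.7 CPM in siIMP2 + IL-17, against 15, 14.7 and 10.3 CPM in siControl + IL-17. The groups did not overlap, and RB160 was the lowest library of every group. Adamts6 rose by 0.87 ± 0.08 without IL-17 (edgeR adjusted p = 5.56e-06, RB160 0.85, NA 0.89) and by 0.93 ± 0.08 with IL-17 (edgeR adjusted p = 3.81e-06, RB160 1.01, NA 0.88). Adamts10 (ENSMUSG00000024299, chromosome 17, 33524204 to 33553782, plus strand), mutated in human Weill-Marchesani syndrome, averaged 32.1 ± 6.17 CPM in siIMP2 and 36.4 ± 8.67 CPM in siControl (SD, n = 3 each). Its change was -0.17 ± 0.07 without IL-17 (edgeR adjusted p = 0.0700) and -0.11 ± 0.07 with it (edgeR adjusted p = 0.236), with groups that overlapped. Without replicate 1 of siIMP2 + IL-17 the Adamts10 change without IL-17 passed (edgeR adjusted p = 0.0471).

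Among the hyalectanases, Adamts1 (ENSMUSG00000022893, chromosome 16, 85793827 to 85803113, minus strand), known for its role in ovulation in mice, had 19.6, 19.5 and 45.4 CPM in siIMP2, against 42.1, 36.9 and 63.1 CPM in siControl. With IL-17 it had 19.6, 17.4 and 42.4 CPM in siIMP2 + IL-17, against 39.3, 34.1 and 69.1 CPM in siControl + IL-17. Within each set the libraries with the IMP2 siRNA were lower, and the groups overlapped because the RB160 library of siIMP2 lay above both NA libraries of siControl. Adamts1 fell by 0.82 ± 0.11 without IL-17 (edgeR adjusted p = 1.18e-04, RB160 -0.47, NA -1.01) and by 0.88 ± 0.11 with IL-17 (edgeR adjusted p = 6.96e-05, RB160 -0.70, NA -0.99). Adamts5 (ENSMUSG00000022894, chromosome 16, 85858170 to 85901125, minus strand), which lies 55.1 kb from Adamts1 on the same strand, had 21.6, 22.3 and 54.2 CPM in siIMP2, against 29.8, 28.9 and 66.2 CPM in siControl. Within each set the siIMP2 libraries were lower, and across sets the groups overlapped. Adamts5 fell by 0.37 ± 0.06 without IL-17 (edgeR adjusted p = 6.87e-04, RB160 -0.29, NA -0.42) and by 0.37 ± 0.07 with IL-17 (edgeR adjusted p = 8.6e-04, RB160 -0.27, NA -0.43).

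Adamts9 (ENSMUSG00000030022, chromosome 6, 92772699 to 92943492, minus strand) is a mammalian relative of worm GON-1. It had 29, 39 and 14 reads in siIMP2, against 102, 73 and 22 reads in siControl, and 29, 19 and 19 reads in siIMP2 + IL-17, against 75, 74 and 56 reads in siControl + IL-17. On these low counts it fell by 1.18 ± 0.30 without IL-17 (edgeR adjusted p = 0.00844, RB160 -0.59, NA -1.28) and by 1.47 ± 0.30 with IL-17 (edgeR adjusted p = 0.00244, RB160 -1.29, NA -1.45). With IL-17 the groups did not overlap on the CPM scale, and without it they did. Adamts9 had 551 reads over all libraries, and A730049H05Rik and 9530026P05Rik, which overlap it on the opposite strand, had 147 and 4, so its count may include reads of the overlapping genes. Adamts4 (ENSMUSG00000006403, chromosome 1, 171250421 to 171260637, plus strand) had 10.2, 9.91 and 6.03 CPM in siIMP2, against 11.96, 12.3 and 8.61 CPM in siControl, lower within both sets. It fell by 0.35 ± 0.12 without IL-17 (edgeR adjusted p = 0.0425, RB160 -0.51, NA -0.27). With IL-17 its change was -0.17 ± 0.12 (edgeR adjusted p = 0.309), and its values of 13.6, 10.3 and 5.83 CPM in siIMP2 + IL-17, against 11.98, 12.9 and 7.79 CPM in siControl + IL-17, overlapped within the NA set. Without replicate 1 of siIMP2 + IL-17 this change was -0.34 and passed (edgeR adjusted p = 0.0311). The Adamts4 call without IL-17 was lost (adjusted p 0.0503 to 0.176) when any 1 of 8 libraries was left out, namely any siIMP2 library, any siControl + IL-17 library, or replicate 2 or 3 of siControl, and in the NA libraries alone (0.128).

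The procollagen N-proteinase gene Adamts2 (ENSMUSG00000036545, chromosome 11, 50602084 to 50807573, plus strand) had 93.1, 85.9 and 113 CPM in siIMP2, against 120, 114 and 178 CPM in siControl. With IL-17 it had 89.6, 85.8 and 93.4 CPM in siIMP2 + IL-17, against 124, 110 and 163 CPM in siControl + IL-17. No library with the IMP2 siRNA reached the lowest control library of the same stimulus. Adamts2 fell by 0.49 ± 0.09 without IL-17 (edgeR adjusted p = 0.00137, RB160 -0.66, NA -0.39) and by 0.54 ± 0.09 with IL-17 (edgeR adjusted p = 6.15e-04, RB160 -0.81, NA -0.41). Gm12198, which overlaps it on the opposite strand, had 196 reads over all libraries.

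**Figure D2:**
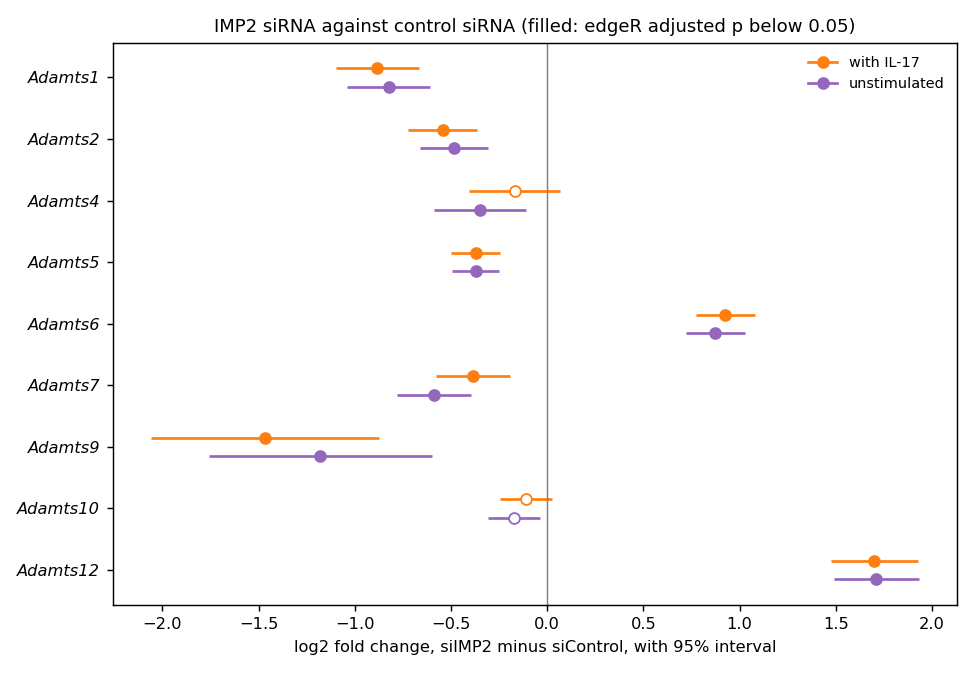
Log2 fold change of exon reads, siIMP2 minus siControl, for the 9 tested ADAMTS genes with IL-17 and unstimulated, with 95% intervals and filled points where the edgeR adjusted p was below 0.05. Adamts12 and Adamts6 lie to the right of 0 with both stimuli, and Adamts10 is open with both.

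Averaged over both stimuli all 9 tested members passed, 2 higher and 7 lower, beside 24.1% of all genes that rose and 25.3% that fell. The averaged change of Adamts10 was -0.14 ± 0.05 (edgeR adjusted p = 0.0273), and it lost the call in 6 of the 12 fits that left out a library (adjusted p 0.0599 to 0.0834, without replicate 3 of siControl, replicates 1 or 3 of siIMP2, replicate 1 of siControl + IL-17, or replicates 2 or 3 of siIMP2 + IL-17), in the NA libraries alone (0.129), without a low-count filter (0.0518) and on uniquely mapped reads (0.0773). The averaged change of Adamts4 was -0.26 ± 0.09 (edgeR adjusted p = 0.0233), and it was lost in 6 such fits (0.0510 to 0.0659, without replicate 3 of siControl, replicates 2 or 3 of siIMP2, replicate 2 of siControl + IL-17, or replicates 2 or 3 of siIMP2 + IL-17) and in the NA libraries alone (0.143). Without the title-set term Adamts12 alone passed in either single comparison. In the authors' deposited table, Adamts12 was likewise the 1 member of 10 below a false discovery rate of 0.05 for the Imp2 siRNA, with a log2 fold change of 1.71 without IL-17 (2.16e-12) and 1.70 with IL-17 (2.70e-12).

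Genes listed as markers of other cell types moved with the siRNA. The 5 smooth muscle markers summed to 10800 to 20100 CPM in siIMP2, against 5410 to 10200 CPM in siControl. With IL-17 they summed to 8780 to 18900 CPM in siIMP2 + IL-17, against 4050 to 9750 CPM in siControl + IL-17. Of the 5 markers 4 rose. Most of the sum is Acta2, Tagln and Cnn1, with means of 7780, 3330 and 928 CPM over all libraries. Myh11 and Des had means of 1.82 and 1.09 CPM, so the sum says little of them. Of the 8 fibroblast markers 1 rose and 6 fell, where 24.1% of all genes rose and 25.3% fell in the same averaged comparison. The fibroblast sum was 14900 to 19600 CPM in siIMP2 and 14300 to 18000 CPM in siControl. Most of this sum is Col1a1 and Col1a2, so it says little of the other markers. Col1a1 averaged 11200 CPM in siIMP2 and 8960 CPM in siControl, and Col1a2 5320 and 5970 CPM. The chondrocyte markers summed to 131 to 328 CPM in siIMP2 and 181 to 575 CPM in siControl, with Matn1 at 0 reads, and 1 of the 3 tested fell. Most of that sum is Col2a1, with a mean of 233 CPM over all libraries, beside 32.6 CPM for Sox9 and 2.63 CPM for Acan. The part of all these markers in the ADAMTS differences was not tested. The endothelial and epithelial lists summed to at most 1.5 and 1.47 CPM in any library, with 1 tested marker of each that fell, and the sum of 5 macrophage markers was 3.86 to 5.58 CPM in siIMP2 and 3.73 to 6.06 CPM in siControl.

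Reads that fell within a gene but outside its exons gave a second measure of the same genes. They made up 4.49% to 6.42% of gene reads per library, and between 4.73% (Adamts5) and 24.5% (Adamts10) of the reads of the tested members. For Adamts12 they stood at 164, 188 and 115 CPM (scaled to the reads outside exons) in siIMP2, against 75.9, 52.9 and 47.5 CPM in siControl. With IL-17 they stood at 147, 195 and 85.8 CPM in siIMP2 + IL-17, against 52.5, 39.8 and 40.4 CPM in siControl + IL-17. As with exon reads, all libraries with the IMP2 siRNA were above all those with the control siRNA. For Adamts6 these reads stood at 184, 208 and 102 CPM in siIMP2, against 124, 85.9 and 58.3 CPM in siControl, with overlap between the sets.

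Averaged over both stimuli, 6 of 9 members passed outside exons, 2 higher and 4 lower, beside 22.2% of the 12463 genes tested there. Adamts12 rose by 1.49 ± 0.11 (edgeR adjusted p = 3.03e-10) and Adamts6 by 0.94 ± 0.09 (2.2e-08). Adamts9 fell by 1.53 ± 0.37 (edgeR adjusted p = 0.00301), Adamts1 by 0.78 ± 0.17 (0.00116), Adamts2 by 0.56 ± 0.08 (6.55e-06) and Adamts5 by 0.38 ± 0.13 (0.0396). The Adamts9 value rests on 104 reads outside exons in all, with 6, 2 and 3 in siIMP2 against 17, 17 and 3 in siControl. Its change outside exons passed without IL-17 (edgeR adjusted p = 0.0321) and did not pass with IL-17 (0.101). Adamts4 stood at -0.32 ± 0.20 (edgeR adjusted p = 0.276), Adamts10 at -0.06 ± 0.08 (0.658) and Adamts7 at -0.04 ± 0.19 (0.923). A direct test of outside minus exon change, with both kinds of read in 1 fit, passed for 0 of 9 members, where 9.42% of 11508 genes passed. By unadjusted p 2 of the 9 were below 0.05. Adamts7 gave a difference of 0.46 ± 0.18 (edgeR adjusted p = 0.103) and Adamts12 one of -0.22 ± 0.10 (edgeR adjusted p = 0.158). The Adamts7 value rests on 312 reads outside exons in all, which may include reads of the overlapping Tbc1d2b.

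Because Adamts12 and Adamts1 moved in opposite directions, each in both kinds of read, the 250 bases upstream of their RefSeq starts (GRCm38.p6) are shown side by side, 5′ to 3′ on the strand of the gene, with the only motif match in capitals.
Adamts12 promoter, chr15:11064523-11064772, plus strand: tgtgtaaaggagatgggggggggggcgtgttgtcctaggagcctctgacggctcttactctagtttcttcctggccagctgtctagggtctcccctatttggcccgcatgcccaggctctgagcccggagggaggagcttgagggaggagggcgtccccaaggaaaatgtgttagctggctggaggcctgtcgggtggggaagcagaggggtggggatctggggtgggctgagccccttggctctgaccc
Adamts1 promoter, chr16:85803114-85803363, minus strand: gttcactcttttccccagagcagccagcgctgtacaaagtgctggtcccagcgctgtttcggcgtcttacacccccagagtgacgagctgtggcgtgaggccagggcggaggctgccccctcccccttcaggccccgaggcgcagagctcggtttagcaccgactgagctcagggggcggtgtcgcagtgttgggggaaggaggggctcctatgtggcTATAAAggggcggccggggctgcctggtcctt
The sequences were searched on both strands for a C/EBP motif (TTGCNNAA), an AP-1 motif (TGANTCA), a TEAD motif (CATTCC) and a TATA box (TATAAA). Adamts1 held TATAAA, which begins 32 bases before the start, and Adamts12 held none of the 4. Among 32841 promoter windows of the same length, 12.4% held TATAAA, 9.57% the C/EBP, 6.75% the AP-1 and 12.6% the TEAD letters. The GC content was 63.2% upstream of Adamts12 and 65.6% upstream of Adamts1, beside a median of 52.4% over all windows. Adamts2 and Adamts9, the other 2 members with a RefSeq promoter entry, held none of the motifs at 78.0% and 71.2% GC.

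**Figure D3:**
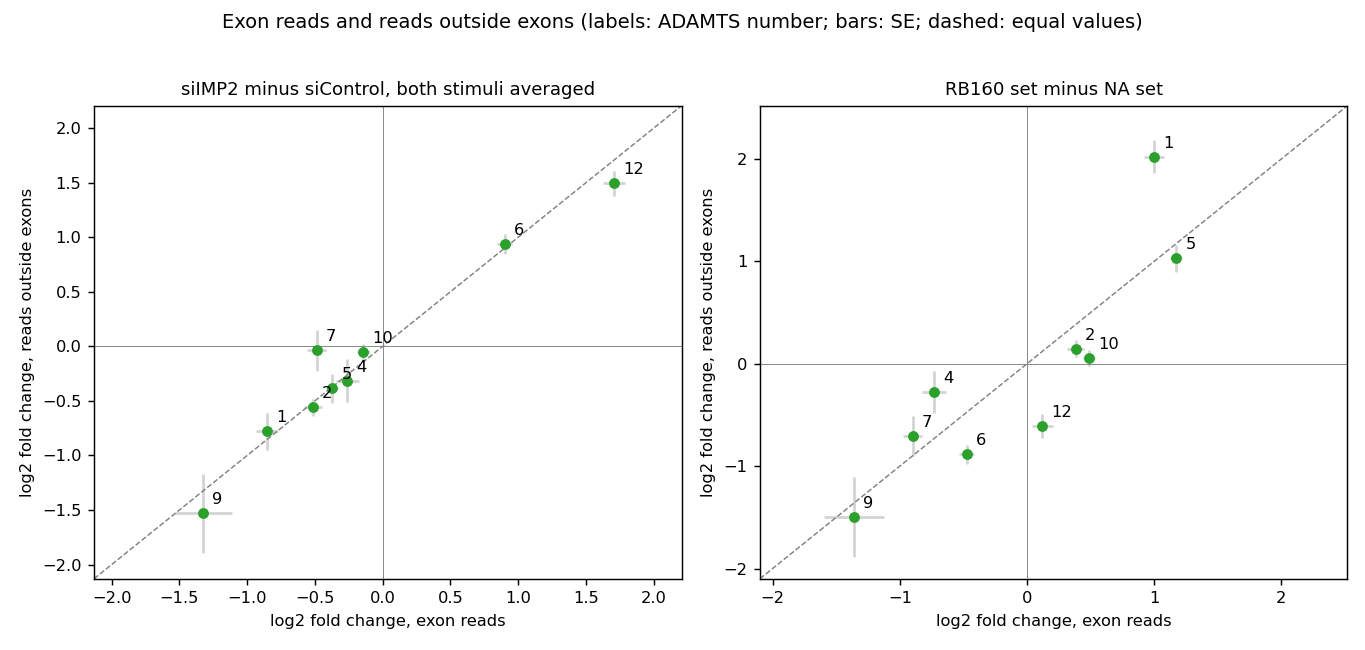
Log2 fold change of reads outside exons (vertical) against exon reads (horizontal) for the 9 tested ADAMTS genes, labelled by number, with SE bars, for siIMP2 minus siControl averaged over both stimuli (left) and for the RB160 set minus the NA set (right). On the left Adamts7 stands above the dashed line of equal values (-0.04 outside exons against -0.49 in exons) and the other 8 genes lie closer to it, and on the right Adamts1 stands above it (2.02 outside exons against 1.00 in exons) and Adamts12 below it (-0.61 against 0.12).

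The second comparison was IL-17 against no stimulus. Adamts5, the aggrecanase, was the 1 tested member of 9 that passed, and it fell to 66.9% of the unstimulated level in siIMP2 cells and to 66.8% in siControl cells. It had 15.3, 14.9 and 34.4 CPM in siIMP2 + IL-17, against 21.6, 22.3 and 54.2 CPM in siIMP2. In cells with the control siRNA it had 20.0, 20.7 and 41.4 CPM in siControl + IL-17, against 29.8, 28.9 and 66.2 CPM in siControl. Within each title set every IL-17 library was lower than every unstimulated library of the same siRNA, and across the sets the ranges overlapped. Adamts5 fell by 0.58 ± 0.07 in siIMP2 cells (edgeR adjusted p = 0.00169, RB160 -0.66, NA -0.53) and by 0.58 ± 0.06 in siControl cells (edgeR adjusted p = 0.00152, RB160 -0.68, NA -0.53). Of all genes 0.168% fell in siIMP2 cells and 0.168% in siControl cells.

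Averaged over both siRNAs Adamts5 fell by 0.58 ± 0.05 (edgeR adjusted p = 3.16e-05), where 1.42% of genes fell. Its reads outside exons fell by 0.66 ± 0.13 on average (edgeR adjusted p = 0.00981), where 0.345% of genes tested outside exons fell. In the single comparisons the change of these reads did not pass. It was -0.65 in siIMP2 cells (edgeR adjusted p = 0.366) and -0.66 in siControl cells (0.162). These reads numbered 22, 17 and 99 in siIMP2 + IL-17 against 34, 43 and 110 in siIMP2, and 33, 39 and 113 in siControl + IL-17 against 51, 49 and 121 in siControl. Without the title-set term the Adamts5 change was of similar size (-0.60 averaged) and did not pass (edgeR adjusted p = 1.00). In the authors' deposited table, Adamts5 had log2 fold changes of -0.60 in Imp2 siRNA cells and -0.60 in Mock cells at a false discovery rate of 1.00, and 0 of 10 members passed. The authors' headers call the control arm Mock where the sample labels say siControl, and Mock was read as siControl here.

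The COMP-cleaving Adamts12 was next in order. It had 48.0, 56.4 and 49.2 CPM in siIMP2 + IL-17, against 63.4, 66.4 and 60.1 CPM in siIMP2, with no overlap. In siControl + IL-17 it had 15, 13.7 and 18.5 CPM, against 18.9, 16.5 and 22.7 CPM in siControl, lower within each set and overlapping across sets. Its change was -0.31 ± 0.11 in siIMP2 cells (edgeR adjusted p = 0.427), -0.30 ± 0.12 in siControl cells (0.358) and -0.30 ± 0.08 averaged (0.0605). With only the compared groups in the model, the change in siIMP2 cells was -0.30 and passed (edgeR adjusted p = 0.0142). The averaged change passed with DESeq2 (adjusted p = 0.0112), without a low-count filter (0.0080), in the NA libraries alone (change -0.31) and in 3 of the 12 fits that left out a library (0.0355 to 0.0485, without replicate 2 of siIMP2 + IL-17, replicate 3 of siControl + IL-17 or replicate 2 of siControl). Over the remaining 7 tested members the averaged IL-17 change lay between -0.09 (Adamts10) and 0.13 (Adamts7), with edgeR adjusted p from 0.406 to 0.924. The hyalectanase genes Adamts1, Adamts4 and Adamts9 stood at -0.06 ± 0.08, 0.07 ± 0.09 and -0.07 ± 0.21. For Adamts9 the averaged value was 0.65 in the RB160 set and -0.33 in the NA set, and the difference between sets of 1.11 ± 0.37 did not pass (edgeR adjusted p = 0.317, unadjusted p = 0.0111).

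The difference of the IL-17 responses, siIMP2 minus siControl cells, passed for 0 of 9 members and for 0.0% of all genes. At an unadjusted p below 0.05 there were 0 members and 152 of 13702 genes, and DESeq2 also called 0. That share of genes is below the 0.05 that no effect at all would give, so these p-values ran large. The lack of calls therefore does not show that the responses were equal. For Adamts5 the difference was 0.00096 ± 0.0925 with a 95% interval of -0.18 to 0.18. The widest interval was that of Adamts9, from -1.12 to 0.55, and the Adamts7 interval ran from -0.07 to 0.48.

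**Figure D4:**
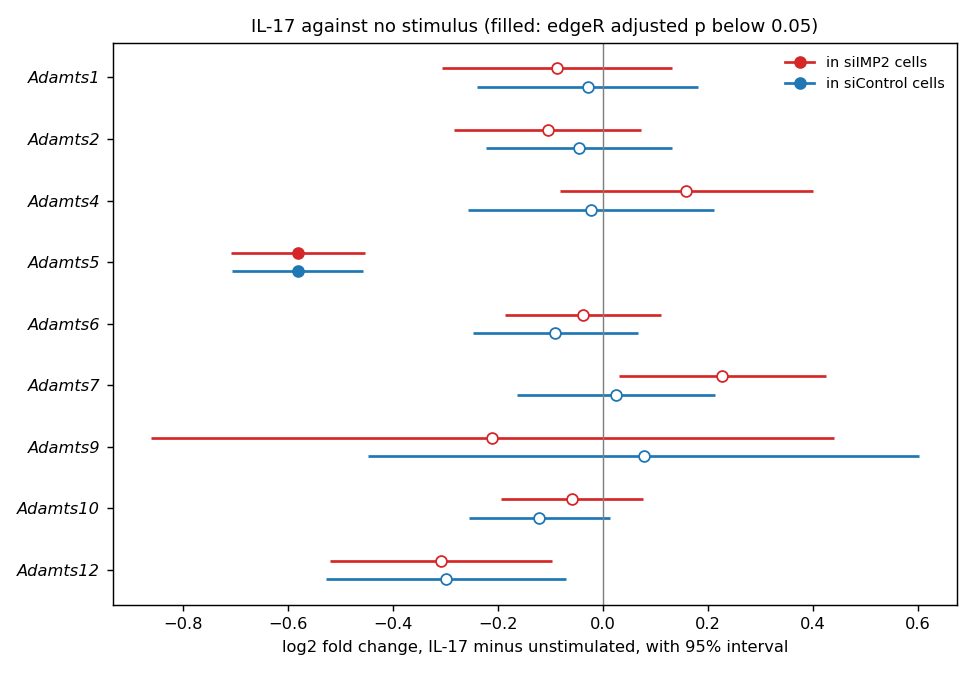
Log2 fold change of exon reads, IL-17 minus unstimulated, for the 9 tested ADAMTS genes in siIMP2 and in siControl cells, with 95% intervals and filled points where the edgeR adjusted p was below 0.05. Adamts5 is filled in both, at -0.58 each, and the other 8 genes are open.

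With IL-17 averaged over both siRNAs, 1 fibroblast marker rose and 2 fell, beside 179 of 13702 genes that rose and 194 that fell. The summed fibroblast level was 14000 to 15600 CPM in siIMP2 + IL-17, against 14900 to 19600 CPM in siIMP2. In siControl + IL-17 it was 12500 to 14900 CPM, against 14300 to 18000 CPM in siControl. The smooth muscle list had 0 markers that rose and 1 that fell. Their part in the Adamts5 difference was not tested.

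The title sets were compared next, as RB160 minus NA. Adamts5 and Adamts1 were higher in the RB160 libraries, and Adamts9, Adamts7 and Adamts4 were lower. Of the 9 members 4 were higher and 4 lower, where 34.9% and 34.6% of all genes were. Adamts5 ran from 34.4 to 66.2 CPM in the 4 RB160 libraries, against 14.9 to 29.8 CPM in the 8 NA libraries, with no overlap. Its difference of 1.17 ± 0.05 (edgeR adjusted p = 3.98e-10) was larger in size than its siRNA and IL-17 changes. Adamts1 ran from 42.4 to 69.1 CPM in RB160 libraries, against 17.4 to 42.1 CPM in NA libraries, next to each other but with no overlap, a difference of 1.00 ± 0.08 (edgeR adjusted p = 1.66e-07). Adamts10 was higher by 0.49 ± 0.05 and Adamts2 by 0.38 ± 0.07. Adamts9 was lower at -1.36 ± 0.24, Adamts7 at -0.90 ± 0.08, Adamts4 at -0.73 ± 0.09 and Adamts6 at -0.47 ± 0.06. Adamts12 did not pass (0.12 ± 0.08, edgeR adjusted p = 0.220).

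The 2 kinds of read differed between the sets for 5 of 9 members, where 32.0% of genes did. Reads outside exons of Adamts1 ran from 64.8 to 95.9 CPM in RB160 libraries, against 7.58 to 38.0 CPM in NA libraries. The outside minus exon difference was 1.05 ± 0.13 for Adamts1 (edgeR adjusted p = 2.3e-08) and -0.69 ± 0.10 for Adamts12 (2.72e-07). It was -0.44 ± 0.08 for Adamts10 (edgeR adjusted p = 2.15e-05), -0.41 ± 0.09 for Adamts6 (6.45e-04) and -0.25 ± 0.09 for Adamts2 (0.0247). RB160 libraries also held a larger share of reads outside exons, 4.94% to 6.42% against 4.49% to 5.09% in NA libraries, and the part of that share in these values was not tested.

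The size of the siRNA effect differed between the sets for 3 of 9 members, where 6.58% of all genes did, and that of the IL-17 effect for 0 of 9, where 0.307% did. By unadjusted p 1 member, Adamts9, was below 0.05 for IL-17. Adamts12 rose less in the RB160 set than in the NA set (1.41 against 1.86 averaged), Adamts1 fell less (-0.59 against -1.0) and Adamts2 fell more (-0.73 against -0.40). The RB160 set holds 1 library per group, so its own values carry no replicate error.

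**Figure D5:**
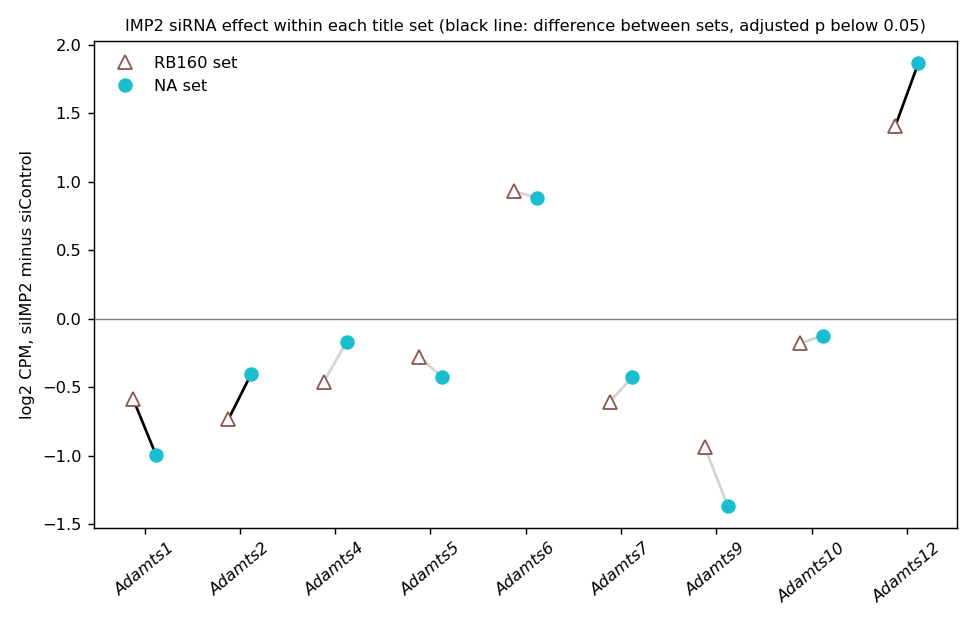
Difference of mean log2 CPM, siIMP2 minus siControl averaged over both stimuli, for each tested ADAMTS gene in the RB160 set (open triangles) and the NA set (filled circles), with a black line where the difference between sets passed. All 9 genes have the same direction in both sets, and the black lines are those of Adamts1, Adamts2 and Adamts12.

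Genes that act with ADAMTS proteases were listed by role. In the averaged siRNA comparison, used for every list, 24.1% of all genes rose and 25.3% fell, and in the averaged IL-17 comparison 1.42% of all genes fell. Of 6 hyalectan and other proteoglycan substrates 5 were tested, and with the siRNA averaged over stimuli 1 rose and 1 fell (median 0.23, against -0.0022 over all genes). Vcan, which encodes the hyalectan versican, averaged 145 CPM in siIMP2 and 298 CPM in siControl, and 143 CPM in siIMP2 + IL-17 and 316 CPM in siControl + IL-17. It fell by 1.16 ± 0.10 (edgeR adjusted p = 1.61e-06). The small proteoglycan gene Bgn (biglycan) rose by 0.28 ± 0.04 (edgeR adjusted p = 5.89e-05), and Fmod (fibromodulin) stood at 0.23 ± 0.09 (0.0502). With IL-17 none of the 5 passed (median -0.21, against -0.0058 over all genes), with Acan, encoding aggrecan, at -0.58 ± 0.28 (edgeR adjusted p = 0.331), Fmod at -0.32 ± 0.09 (0.0855) and Bgn at -0.13 ± 0.04 (0.104).

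Of the 6 fibrillar procollagen genes, the substrates of ADAMTS2 among them, 3 rose and 3 fell with the siRNA (median 0.07), beside 24.1% and 25.3% of all genes. Col3a1 fell by 0.79 ± 0.07 (edgeR adjusted p = 1.26e-06), to 503 CPM in siIMP2 against 834 CPM in siControl. Col2a1 fell by 0.62 ± 0.07 (edgeR adjusted p = 2.1e-05), and Col5a2 rose by 0.35 ± 0.04 (1.07e-05). With IL-17 1 of the 6 passed (median -0.18): Col1a2 fell by 0.21 ± 0.04 (edgeR adjusted p = 0.0249), while Col1a1 stood at -0.20 ± 0.05 (0.0553) and Col5a1 at -0.24 ± 0.06 (0.0584).

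Of 10 microfibril, basement membrane and other matrix partners 7 were tested, and 4 rose and 2 fell with the siRNA (median 0.16), beside 24.1% and 25.3% of all genes. Fbln1, encoding fibulin-1, fell by 0.83 ± 0.06 (edgeR adjusted p = 2.85e-07), Fbn2, encoding fibrillin-2, by 0.83 ± 0.09 (5.4e-06), and the latent TGF-beta binding protein gene Ltbp1 rose by 0.39 ± 0.04 (4.93e-06). Comp, the substrate of ADAMTS7 and ADAMTS12, had 83 reads in 12 libraries and was not tested. With IL-17 Nid2, encoding the basement membrane protein nidogen-2, fell by 0.36 ± 0.05 (edgeR adjusted p = 0.00200), and the 6 others did not pass (median of the 7, -0.13), with Fbn2 at -0.33 ± 0.09 (0.0575) and Ltbp1 at -0.13 ± 0.04 (0.117). Of 6 genes of hyaluronan synthesis and binding 4 were tested. With the siRNA the synthase gene Has1 fell by 1.64 ± 0.28 (edgeR adjusted p = 3.17e-04) at under 1 CPM in all groups, and Has2 stood at -0.48 ± 0.24 (0.122) and Has3 at 0.22 ± 0.19 (0.346) (median of the 4, -0.26). With IL-17 none of the 4 passed (median 0.06), with Cd44, the hyaluronan receptor, at 0.24 ± 0.13 (edgeR adjusted p = 0.417).

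All 6 genes of propeptide processing and thrombospondin-repeat glycosylation were tested, and 2 rose and 3 fell with the siRNA (median -0.06, with 24.1% and 25.3% over all genes). The convertase genes Furin and Pcsk6 rose by 0.32 ± 0.06 (edgeR adjusted p = 5.76e-04) and 0.68 ± 0.09 (4.45e-05), and the glucosyltransferase gene B3glct fell by 0.47 ± 0.04 (1.1e-06). With IL-17 Pcsk6 fell by 0.39 ± 0.09 (edgeR adjusted p = 0.0363), and the other 5 did not pass (median of the 6, -0.04). Of 8 inhibitor, clearance and cofactor genes 6 were tested, and 1 rose and 3 fell with the siRNA (median -0.16, with the same shares over all genes). Timp1, a metalloproteinase inhibitor, fell by 0.66 ± 0.11 (edgeR adjusted p = 2.79e-04), to 752 CPM in siIMP2 against 1220 CPM in siControl. The membrane-anchored inhibitor gene Reck fell by 0.52 ± 0.07 (edgeR adjusted p = 6.15e-05), and the syndecan gene Sdc4 by 0.24 ± 0.06 (0.00373). With IL-17 none of the 6 passed (median -0.09), with Reck at -0.26 ± 0.07 (edgeR adjusted p = 0.0698), Sdc4 at 0.21 ± 0.06 (0.0772) and Timp2 at -0.15 ± 0.04 (0.0936).

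Of the 9 other ADAMTS genes 4 were tested. With the siRNA 1 fell (median -0.13): Adamts14, a close relative of Adamts2 that also processes procollagen, fell by 0.52 ± 0.06 (edgeR adjusted p = 1.06e-05), to 11.4 CPM in siIMP2 against 16.6 CPM in siControl. With IL-17 1 fell (median -0.15): Adamts18 fell by 1.54 ± 0.32 (edgeR adjusted p = 0.0243), at a mean of 0.361 CPM or less in every group. Its mean was 0.0655 CPM in siControl + IL-17 against 0.361 CPM in siControl. In siIMP2 + IL-17 it was 0.216 CPM, against 0.337 CPM in siIMP2. Adamts18 had 126 reads over all libraries and at most 42 in a library. Of 7 ADAMTS-like genes, which encode relatives without a protease domain, 6 were tested, and 2 rose and 2 fell with the siRNA (median 0.04), beside 24.1% and 25.3% of all genes. Thsd4 (ADAMTSL6) rose by 1.16 ± 0.16 (edgeR adjusted p = 7.71e-05), at a mean of 1.62 CPM or less in every group. Adamtsl5 rose by 0.40 ± 0.07 (edgeR adjusted p = 3.32e-04) and Adamtsl4 fell by 0.18 ± 0.05 (0.00496). With IL-17 Adamtsl3 fell by 0.37 ± 0.07 (edgeR adjusted p = 0.0117), and the other 5 did not pass (median of the 6, -0.29).

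The genes whose pattern over the 12 libraries was most like that of 3 hyalectanase genes were found by Pearson r of log2 CPM with the mean of each title set removed. The libraries share groups, so these values follow the siRNA and IL-17 differences and are a description. For Adamts1 they were Ahr, the aryl hydrocarbon receptor (r = 0.994), Dse, a dermatan sulfate epimerase (0.992), and Sh3d19 (0.989). For Adamts5 they were Col1a2 (r = 0.962), C230014O12Rik (0.954) and the homeobox gene Irx3 (0.952). For Adamts4 they were Trim12a (r = 0.942), Dbi (0.929) and Fbxw4 (0.923).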

How the data were processed

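Gene counts came from 12 RNA-seq libraries. The deposited counts are whole-number reads per gene, not normalised, and the deposited TPM are the authors' length-scaled values, per the file headers. Reads outside exons are the deposited total gene reads less the exon counts. The authors' deposited table also gives log2 fold changes and false-discovery-rate p-values. Per the submitters' processing notes the build was mm10. Neither the test behind that table nor the aligner, the counter and the use of strand is given in the sources used here. Of 48709 gene rows 0 had no name, and 0 per-sample count columns were unused. The IDs of all 10 members carried the same symbol in GENCODE.

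Groups came from the treatment labels, and title prefixes gave the title set. Replicates were numbered in accession order, which was not used to pair libraries. The exon counts went into edgeR 4.0.16 under R 4.3.3 (TMM, filterByExpr by group with a minimum count of 10 and total of 15, quasi-likelihood fit over 12 libraries with group and title set, Benjamini-Hochberg, threshold 0.05). The same fit served for reads outside exons (12463 genes). Outside minus exon change was tested with both kinds of read in 1 fit with the library as a block (11508 genes). That test, and the test of effects between title sets, were added after seeing the data. Log2 CPM used a prior count of 2, and 1 CPM stands for 31.9 to 50.9 reads. Alternatives were RLE factors, DESeq2 1.42.0, a model without the title set, the NA libraries by themselves, the compared groups by themselves, no low-count filter, a filter of 1 CPM in 3 libraries, uniquely mapped reads, and leaving out each library. The scripts were tested on simulated counts. Tables and figures used Python 3.11.15, pandas 2.3.3 and matplotlib 3.10.9.

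The members, the 8 gene lists and the marker lists were chosen with earlier results of these data known. Named genes were the 10 members, the siRNA target, up to 3 tested genes of smallest p per list in the averaged siRNA and IL-17 comparisons, and the 3 genes most like each of Adamts1, Adamts4 and Adamts5. A named gene that is at 0 or under the filter was added with its values seen, and so were Igf2bp1 and Igf2bp3. One macrophage marker and 1 result on gene overlap are not reported here. Promoters are from RefSeq (GRCm38.p6), where 4 of the 10 members matched, and protein sequences were not used here.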

Additional observations from a re-analysis of the deposited data

Results flagged for a closer look

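For 3 members the siRNA effect, averaged over both stimuli, differed between the title sets by edgeR's test of the difference itself, RB160 minus NA. For Adamts12 the difference was -0.456 ± 0.109 (adjusted p = 0.0267), with an effect of 1.41 in the RB160 set and 1.86 in the NA set. For Adamts1 it was 0.412 ± 0.111 (edgeR adjusted p = 0.0459), with -0.59 in RB160 and -1.0 in NA. For Adamts2 it was -0.331 ± 0.085 (edgeR adjusted p = 0.0372), with -0.73 in RB160 and -0.40 in NA. The direction was the same in both sets for all 3. Igf2bp2 itself changed by -2.37 in the RB160 set and by -2.93 in the NA set, and the part of this in the 3 differences was not tested.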

How the results depend on the processing

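Across the alternatives no call of a member reversed its direction. Of the values recomputed for single members 1278 kept their side of the threshold, 47 lost a call, 9 gained one, and 52 uncalled values changed sign. The siRNA calls of Adamts1, Adamts2, Adamts5, Adamts6, Adamts7, Adamts9 and Adamts12 in the single comparisons held in every fit but that without the title-set term, where Adamts12 alone held. Without that term 1, 1 and 3 members passed for the siRNA without IL-17, with IL-17 and averaged (321, 327 and 1666 genes in all), and 0 members passed for IL-17 in siControl cells, in siIMP2 cells and averaged (1, 2 and 4 genes in all). For averaged IL-17, 2 members (Adamts5 and Adamts12) passed with DESeq2, without a low-count filter and in the NA libraries alone, which called 654, 674 and 199 genes, and 1 to 2 members passed when each library was left out (198 to 490 genes). In siControl cells DESeq2 called 193 genes for IL-17, no filter 221 and the compared groups alone 100, against 58, and 9 to 98 with each library left out. In siIMP2 cells these were 171, 179 and 349 (the last with 2 members), against 70, the NA libraries alone called 46, and leaving out each library 13 to 117. No paired fit was run, because the labels give no replicate number that the groups share, and replicates 1 to 3 follow accession order. The title set, which the groups do share, was a term in every fit but the one without it and those of the NA libraries alone. Depth limits Adamts9, at 14 to 102 reads per library, and Adamts15, with 5 reads in all.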
